A study of Mus musculus with 12 samples.

Results

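Genes known for their response to stretch and overload of the heart were followed in cultured mouse heart muscle cells with and without the kinase CaMKII. Ankrd1, Ankrd23, Xirp1, Xirp2, Csrp3, Acta1, Actc1, Rcan1 and Timp1 were taken by gene symbol, and they are 9 of the 24704 genes with a symbol on the arrays. The cells were ventricular myocytes, the contractile cells of the lower heart chambers, isolated enzymatically by Langendorff perfusion from 6 adult mice. The double knockout (DKO) mice lacked the delta and gamma isoforms of CaMKII, the calcium/calmodulin-dependent protein kinase II, and the wild type (WT) mice were their corresponding controls, with 3 mice of each genotype. Myocytes of every mouse were kept for 24 h either without treatment or with 100 nM Iso (isoprenaline, an agonist of the beta-adrenergic receptors), which gave 4 groups of 3 arrays, each array of a group from a different animal. The labels name neither a strain nor the promoter or Cre driver behind the knockout. The study asked whether gene expression changes alongside a phosphorylation of histone H3 at serine 28 that Iso brings about, and whether CaMKII matters for it.

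Cardiac myocytes sense stretch at the Z-disc and along titin, the giant elastic protein of the sarcomere, and at the intercalated disc where neighbouring cells are joined. Proteins that sit at these places can move to the nucleus or bind signalling enzymes, and overload of the heart is known to bring back genes of the fetal heart, among them skeletal muscle actin. Calcium acts through the phosphatase calcineurin, which activates the transcription factor NFAT, and through CaMKII, which releases the factor MEF2 from class IIa histone deacetylases. Ankrd1 (also called CARP) and Ankrd23 (DARP) are muscle ankyrin repeat proteins that bind the elastic part of titin. Xirp1 and Xirp2 are the Xin proteins, which bind actin filaments at the intercalated disc. Csrp3 encodes MLP, the muscle LIM protein of the Z-disc, Acta1 and Actc1 the skeletal and cardiac alpha-actins, Rcan1 an inhibitor and transcriptional target of calcineurin, and Timp1 a secreted inhibitor of matrix metalloproteinases.

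The values are log2 signals, 1 probe set per gene, and a difference of 1 on this scale corresponds to a doubling of signal. All 9 genes lay above their array's median of 3.31 to 3.32 on all 12 arrays, so all 9 were among the 13737 genes tested. Gene positions are those of RefSeq's GRCm38.p6 gene table, whatever build the array annotation used. As levels of different probe sets cannot be set against each other, each gene was compared only with itself. Untreated DKO array 3 stood apart, with a median correlation of 0.956 with the other arrays against 0.984 to 0.988 for the rest. The probe set of Camk2g, the gene of the gamma isoform, read 4.78 to 5.80 on the WT arrays and 3.57 to 4.20 on the DKO arrays. That of Camk2d, the delta isoform, read 7.94 to 8.42 and 7.36 to 7.98, and overlapped between genotypes. Where these probe sets lie relative to the deleted exons is not known here. The 9 markers of ventricular myocytes were above the array median on all 12 arrays. In such bulk RNA, fewer cells of a type and less RNA per cell cannot be told apart.

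The DNA just upstream of the start sites was read because several of these promoters are textbook examples of stretch and calcium control. RefSeq windows of assembly GRCm38.p6, 250 bases before the start, were matched by symbol for 8 of the 9 genes (11 windows, since 3 genes have a second start). The 6 shown here belong to the genes with the largest differences (Ankrd1, Xirp2, Timp1), to both actins, and to Rcan1, whose window holds the element of the cyclic AMP pathway that Iso activates. Capitals mark matches to a motif on either strand. The M-CAT box (CATTCC, or GGAATG on the other strand) is bound by the TEAD factors of the Hippo pathway. The CArG box is bound by serum response factor (SRF), the MEF2 box by MEF2 and the cyclic AMP response element (TGACGTCA) by CREB.
Ankrd1: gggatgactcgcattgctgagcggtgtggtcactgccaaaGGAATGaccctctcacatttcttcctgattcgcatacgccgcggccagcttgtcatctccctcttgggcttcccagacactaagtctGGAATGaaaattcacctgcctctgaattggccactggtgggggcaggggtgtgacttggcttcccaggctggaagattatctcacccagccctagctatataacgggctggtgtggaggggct
Xirp2: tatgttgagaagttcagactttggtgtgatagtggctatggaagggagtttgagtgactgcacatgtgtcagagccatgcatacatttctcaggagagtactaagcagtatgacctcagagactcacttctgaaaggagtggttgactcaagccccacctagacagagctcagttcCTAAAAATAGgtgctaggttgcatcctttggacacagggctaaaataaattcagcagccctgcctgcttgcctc
Acta1: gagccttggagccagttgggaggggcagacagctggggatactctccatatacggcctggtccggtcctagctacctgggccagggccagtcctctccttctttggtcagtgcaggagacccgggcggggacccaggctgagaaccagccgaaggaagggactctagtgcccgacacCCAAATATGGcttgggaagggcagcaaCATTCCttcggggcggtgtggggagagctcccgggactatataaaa
Actc1: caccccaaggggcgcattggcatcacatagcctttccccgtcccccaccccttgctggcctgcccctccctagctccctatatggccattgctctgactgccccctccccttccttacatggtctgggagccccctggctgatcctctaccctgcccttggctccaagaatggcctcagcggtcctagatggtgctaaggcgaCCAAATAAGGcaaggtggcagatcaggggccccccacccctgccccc
Rcan1: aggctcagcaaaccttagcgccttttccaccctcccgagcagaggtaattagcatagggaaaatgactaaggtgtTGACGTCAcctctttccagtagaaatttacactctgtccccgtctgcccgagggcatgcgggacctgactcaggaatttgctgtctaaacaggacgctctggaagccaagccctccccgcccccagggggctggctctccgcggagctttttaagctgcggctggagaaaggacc
Timp1: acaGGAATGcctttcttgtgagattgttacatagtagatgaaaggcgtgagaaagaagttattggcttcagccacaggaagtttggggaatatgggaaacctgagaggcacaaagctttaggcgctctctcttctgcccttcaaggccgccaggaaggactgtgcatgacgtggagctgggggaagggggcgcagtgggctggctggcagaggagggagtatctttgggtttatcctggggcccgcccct
These are chr19:36119845-36120094 (minus strand), chr2:67445752-67446001 (plus), chr8:123894776-123895025 (minus), chr2:114052876-114053125 (minus), chr16:92400079-92400328 (minus, the start nearer the 3′ end of the gene) and chrX:20869916-20870165 (plus).

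The M-CAT box was in 4 of the 11 windows, against 12.6% of all 32817 windows. They belonged to Ankrd1, which has 2 matches with 204 and 117 bases between the match and the start, and to Ankrd23, Acta1 and Timp1, with 114, 40 and 241 bases. The CArG box was in the windows of both actins, 63 bases from the start in Acta1 (CCAAATATGG) and 37 in Actc1 (CCAAATAAGG), against 1.47% of all windows. The MEF2 box was in 1 window, that of Xirp2 (CTAAAAATAG, 64 bases), against 0.509% of all windows. The cyclic AMP response element was in 1 window, that of Rcan1 (167 bases), against 1.55%. The NFAT core GGAAA, searched on both strands and left in lower case, was in 6 of the 11 windows and 55.6% of all. The CArG, MEF2 and cyclic AMP patterns read the same on both strands, and none of the capitalised matches overlapped another. These are letters in a window, not bound sites.

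Of the 9 genes, 1 passed the test in any of 7 comparisons. Timp1 was lower in DKO than in WT myocytes over treated and untreated arrays, a comparison in which 0.488% of all genes passed. Ankrd1 was also lower on every untreated DKO array than on every WT array, a difference that did not pass. With Iso, Xirp2 read higher in the DKO cells and Acta1 lower in the cells of both genotypes, and again neither passed. The threshold was an adjusted p below 0.05 in limma, a linear model with variances moderated across genes, with the Benjamini-Hochberg method over all 13737 genes.

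**Figure D1:**
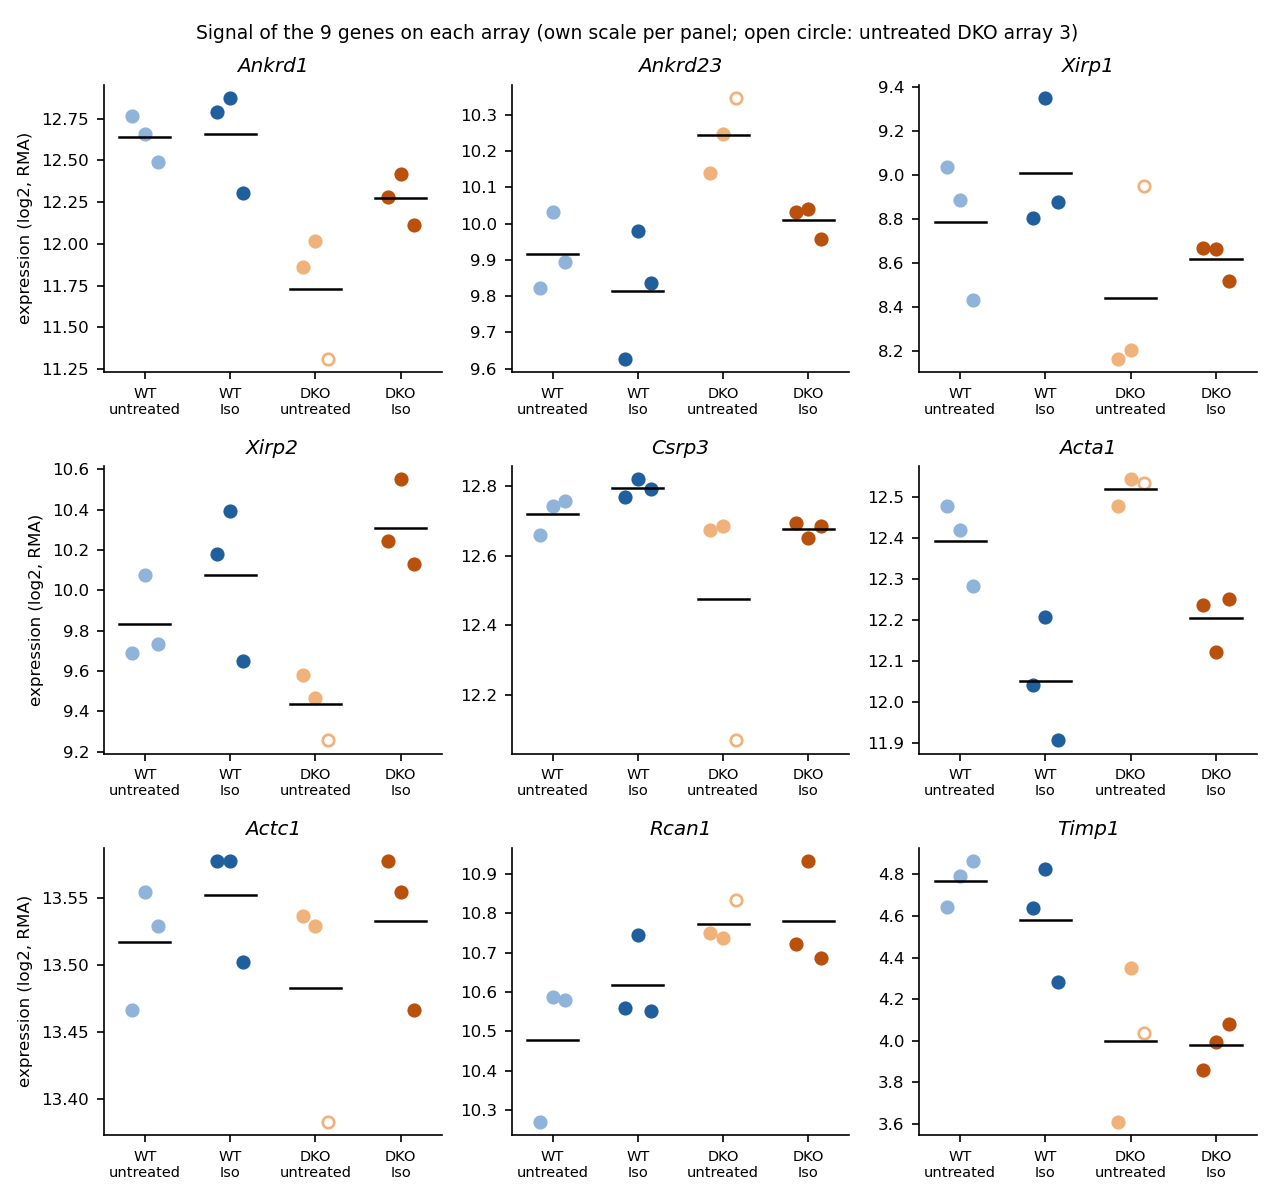
Log2 signal (vertical axes, each gene on its own scale) of the 9 genes on the 12 arrays, in the 4 groups of 3. Points are arrays, bars are group means, and the open circle is untreated DKO array 3; the DKO points of Timp1 lie between 3.61 and 4.35 and the WT points between 4.28 and 4.87.

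Timp1 (Entrez gene 21857), at chrX:20870166-20874737, gave signals of 4.64, 4.79 and 4.87 in untreated WT myocytes and of 4.64, 4.83 and 4.28 in WT myocytes with Iso. In DKO myocytes it gave 3.61, 4.35 and 4.04 without and 3.86, 3.99 and 4.08 with Iso. These are low signals, the lowest of them near the array median of 3.31 to 3.32 that the filter used. Whether this probe set follows the amount of RNA at such a level was not tested. Every DKO array lay below every WT array of the same treatment, while 1 treated WT array lay among the DKO values. Of the genes tested, 3.38% separated the genotypes in both treatments in this way, and Timp1 was the 1 member that did. In the order of its group means, WT untreated, WT with Iso, DKO untreated and DKO with Iso, the middle gap was larger than the spread within a group and the outer gaps were not. Here and below, each gap was set against the larger standard deviation (SD) of the groups on either side of it.

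Over both treatments the difference, DKO minus WT, was -0.69 (SE 0.13, 95% interval -0.98 to -0.40), or 1.61-fold, with an adjusted p of 0.0468 in limma with the mouse as a random block. In this comparison 0.488% of all genes passed (67 of 13737), 0.291% of all as lower in DKO, and 1 of 9 members did. A further 4 members were at an unadjusted p under 0.05, against 10.1% of all genes for that mark; they were Ankrd1, Ankrd23, Xirp1 and Rcan1. For 0 of 9 members did all 6 DKO arrays lie apart from all 6 WT arrays, as they did for 1.09% of all genes. Timp1 differed by -0.77 (SE 0.19, adjusted p = 0.130) without Iso and by -0.60 (SE 0.19, adjusted p = 0.324) with Iso, and passed in neither alone. The call lay close to the threshold. Over 20 other settings the adjusted p ran from 0.00138 to 0.145 and the call was lost in 12, among them no filter (0.0636) and cyclic loess scaling (0.0509). When 1 array was left out the call held without Iso-treated WT array 3, untreated DKO array 2 or untreated DKO array 3, and was lost without any of the 9 others.

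The Iso differences of Timp1 were no larger than their errors: Iso minus untreated was -0.19 (SE 0.19) in WT and -0.02 (SE 0.19) in DKO. Secreted matrix inhibitors such as Timp1 are also made by fibroblasts, so the fibroblast markers are given beside it. Of 10 fibroblast markers tested, 8 were below 0 in the DKO minus WT difference over both treatments, with a median of -0.11, and 0 passed. At an unadjusted p under 0.05 was 1 (limma), against 10.1% of all genes. Summed over the 11 measured, the log2 signal of these markers was 10.72 to 11.03 in WT and 10.51 to 11.03 in DKO without Iso. With Iso it was 10.95 to 11.26 and 10.76 to 10.92. Most of that sum came from Dcn, which with Iso read 10.69 to 11.01 in WT and 10.54 to 10.64 in DKO arrays. The mean log2 signal of the 11 overlapped with Iso, at 4.93 to 5.16 and 4.85 to 5.01. Tcf21, a defining fibroblast transcription factor, was above the array median on 1 of 12 arrays, and the collagen genes Col1a1, Col1a2 and Col3a1 on all 12. Of 10 macrophage and leukocyte markers, 8 were below 0 and 0 passed over both treatments. At an unadjusted p under 0.05 were 3 (limma), against 10.1% of all genes. With Iso alone 9 of these markers were below 0 and 2 passed, Cd14 (-0.92, adjusted p = 0.0402) and Cd74 (-0.94, adjusted p = 0.0400), where 0.306% of all genes passed. Without Iso 5 were below 0 and 0 passed, with 1 at an unadjusted p under 0.05 (limma), against 13.8% of all genes. The summed log2 signal of the 11 measured was 9.24 to 9.55 on WT and 8.65 to 8.76 on DKO arrays with Iso. Ptprc, the leukocyte surface protein CD45, was above the median on 0 arrays. The part of these cells in the difference was not tested.

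Ankrd1 (Entrez gene 107765), at chr19:36111965-36119844, read 12.77, 12.66 and 12.49 on untreated WT arrays and 11.86, 12.02 and 11.31 on untreated DKO arrays. With Iso it read 12.79, 12.88 and 12.30 in WT and 12.28, 12.42 and 12.12 in DKO. The untreated DKO arrays were lower than all 9 others, and the treated DKO arrays overlapped the treated WT ones. The group means fell in the order WT with Iso, WT untreated, DKO with Iso and DKO untreated, and the first 2 differed by less than the spread within a group.

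The DKO minus WT difference of Ankrd1 was -0.91 without Iso (SE 0.20, 95% interval -1.34 to -0.48, adjusted p = 0.100), or 1.88-fold, and -0.38 with Iso (SE 0.20, adjusted p = 0.693). Over both treatments it was -0.65 (SE 0.14, adjusted p = 0.0746). Without untreated DKO array 3 the untreated difference was -0.70 (adjusted p = 0.113), and the difference over both treatments -0.54, which then passed (adjusted p = 0.0375). It passed as well without untreated DKO array 2 (0.0429), without Iso-treated WT array 3 (0.0380), with array weights (0.00581) and with trend and robust moderation (0.0359). In the other 15 of 20 settings the difference over both treatments did not pass, with an adjusted p of up to 0.223 (limma). Over all genes the count passing, 67, was 446 with array weights and 247 without untreated DKO array 3. Ankrd1 was lower in DKO in all 20 settings. Of 11 endothelial markers, 8 were above 0 in the comparison over both treatments and 0 passed. At an unadjusted p under 0.05 were 3 (limma), against 10.1% of all genes. Without Iso 8 of the 11 were also above 0, with a median of 0.36, and 0 passed. There 4 were at an unadjusted p under 0.05 (limma), against 13.8% of all genes. Leaving out untreated DKO array 3 gave a median of 0.22. The part of these cells in the difference was not tested.

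The response of Ankrd1 to Iso did not pass in either genotype. The difference, Iso minus untreated, was 0.42, 0.40 and 0.80 for the 3 DKO animals, and 0.02, 0.22 and -0.19 for the 3 WT animals. All 3 DKO mice read higher with Iso, and the WT mice did not share a direction. The mean was 0.54 in DKO (SE 0.20, adjusted p = 0.173) and 0.02 in WT (SE 0.20). Whether the response differed between the genotypes was tested by the interaction, 0.53 (SE 0.28, adjusted p = 0.527), which did not pass. Without untreated DKO array 3 the DKO value was 0.33 (adjusted p = 0.391). Of the 11 endothelial markers, 2 were above 0 for Iso in DKO (median -0.23) and 10 for Iso in WT (median 0.22). In each 0 passed, with 2 and 1 at an unadjusted p under 0.05 (limma), against 18.4% and 6.7% of all genes. Leaving out untreated DKO array 3, 5 were above 0 for Iso in DKO (median -0.06). The part of these cells in the Ankrd1 values was not tested.

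Ankrd23 (Entrez gene 78321), at chr1:36530193-36536556, ran the other way. It read 9.82, 10.03 and 9.89 in untreated WT and 10.14, 10.25 and 10.35 in untreated DKO, where the groups did not overlap, and untreated DKO was the 1 group set apart from its neighbour by more than the spread. The treated arrays read 9.63, 9.98 and 9.84 in WT and 10.03, 10.04 and 9.96 in DKO. Iso-treated arrays were lower than the untreated array of the same mouse in 6 of 6 mice, as was the case, in 1 direction or the other, for 7.08% of the genes tested. The differences were small: DKO minus WT over both treatments was 0.26 (SE 0.09, adjusted p = 0.294) and Iso minus untreated over both genotypes -0.17 (SE 0.09, adjusted p = 0.411), and neither passed.

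**Figure D2:**
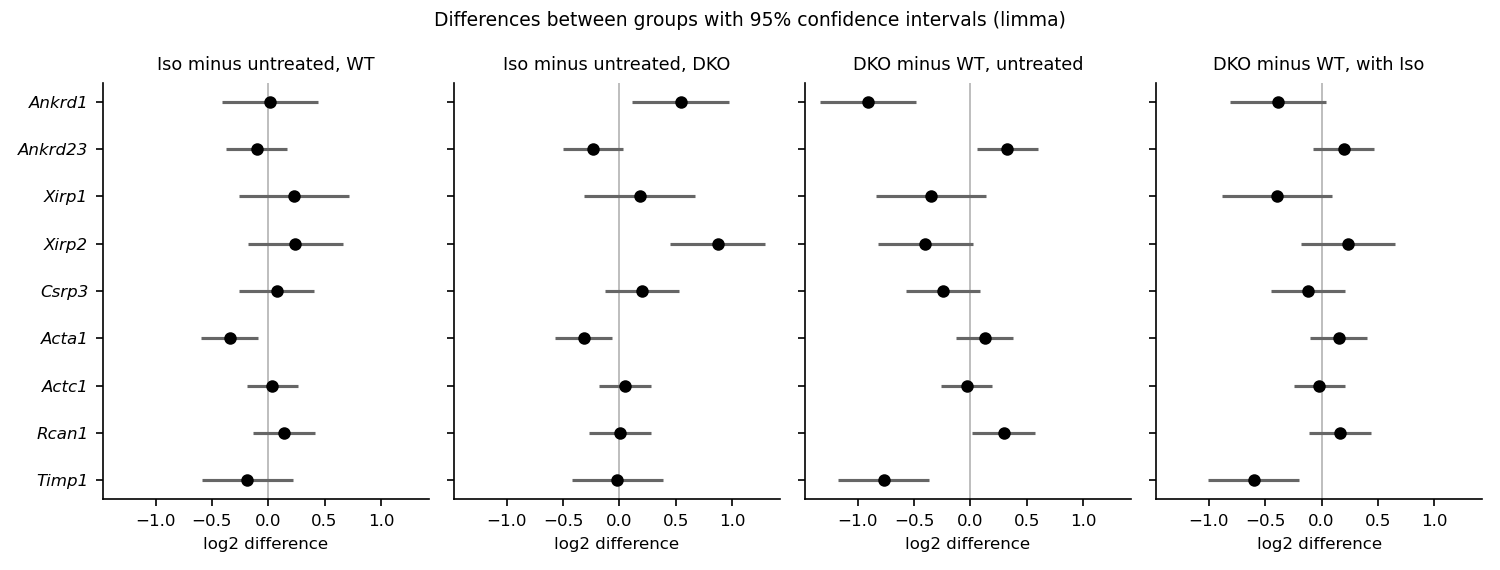
Log2 differences with their 95% confidence intervals for the 9 genes, one panel each for Iso in WT, Iso in DKO, DKO versus WT without Iso and with Iso. The intervals lie wholly on one side of 0 for Acta1 in both Iso panels, for Ankrd1 and Xirp2 with Iso in DKO, for Ankrd1, Ankrd23, Rcan1 and Timp1 between genotypes without Iso and for Timp1 with Iso, while no gene passed after adjustment.

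Xirp2 (Entrez gene 241431), at chr2:67446000-67526620, read 9.69, 10.08 and 9.73 on untreated WT and 9.58, 9.46 and 9.26 on untreated DKO arrays. With Iso it read 10.18, 10.39 and 9.65 in WT and 10.24, 10.55 and 10.13 in DKO. The 3 treated DKO arrays were all above the 3 untreated ones, and the untreated DKO arrays were the lowest of the 4 groups. In WT the treated and untreated arrays overlapped. In the order DKO with Iso, WT with Iso, WT untreated and DKO untreated, the last gap alone was larger than the spread within a group.

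The difference, Iso minus untreated, was 0.66, 1.09 and 0.87 in DKO mice 1 to 3, and 0.49, 0.31 and -0.08 for the WT animals. The mean was 0.87 in DKO (SE 0.19, 95% interval 0.45 to 1.29), or 1.83-fold, with an adjusted p of 0.0717, and 0.24 in WT (SE 0.19, adjusted p = 0.914). In the Iso in DKO comparison 0.051% of all genes passed and 0 of 9 members, 3 of them at an unadjusted p under 0.05 (18.4% of all genes). The interaction was 0.63 (95% interval 0.04 to 1.23, adjusted p = 0.471), and over both genotypes the Iso difference was 0.56 (SE 0.14, adjusted p = 0.120). The DKO value passed with array weights (0.76, adjusted p = 0.0194) and without untreated DKO array 2 (0.0478), and without untreated DKO array 3 it was 0.78 (0.115). In the other 20 of 22 settings it did not pass, with an adjusted p of up to 0.310 (limma). Over all genes 1109 passed with array weights and 605 without untreated DKO array 2, against 7. Of 10 macrophage and leukocyte markers, 8 were below 0 for Iso in DKO and 0 passed (5 at an unadjusted p under 0.05, limma). The summed log2 signal of the 11 measured was 9.16 to 9.45 on untreated and 8.65 to 8.76 on treated DKO arrays. Of the 9 ventricular myocyte markers, 7 were above 0 for Iso in DKO (median 0.10) and 9 for Iso in WT (median 0.08). In each 0 passed and 2 were at an unadjusted p under 0.05 (limma), against 18.4% and 6.7% of all genes. Their summed log2 signal was 15.84 to 15.87 on untreated and 15.90 to 16.01 on treated DKO arrays. In WT it was 15.81 to 15.87 and 15.90 to 15.94. The endothelial markers for the same Iso comparisons are given with Ankrd1 above. The part of these cell types in the Xirp2 values was not tested.

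Xirp1 (Entrez gene 22437), at chr9:120013755-120023598, scattered more within its groups. The untreated WT arrays read 9.04, 8.88 and 8.43, and the treated ones 8.80, 9.35 and 8.88. In DKO the untreated arrays read 8.16, 8.20 and 8.95, and the treated ones 8.67, 8.66 and 8.52. The treated groups did not overlap and the untreated groups did, with untreated DKO array 3 at 8.95, above 2 of the 3 WT arrays. The residual spread of Xirp1 was larger than that of 82.0% of the genes tested. DKO minus WT over both treatments was -0.37 (SE 0.16, adjusted p = 0.464), and no neighbouring group means in its order differed beyond the spread within a group. Without untreated DKO array 3 that difference was -0.50 (adjusted p = 0.0753), and with array weights -0.51, which passed (0.0378). In the other 19 of 20 settings it did not pass, and array weights raised the count over all genes from 67 to 446.

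Csrp3 (Entrez gene 13009), at chr7:48830398-48848051, was even but for 1 array. It read 12.66, 12.74 and 12.76 in untreated WT, 12.77, 12.82 and 12.79 in treated WT, and 12.69, 12.65 and 12.69 in treated DKO arrays. In untreated DKO it read 12.67 and 12.69 on arrays 1 and 2 and 12.07 on array 3. The untreated DKO mean therefore rests on the array that stood apart: DKO minus WT without Iso was -0.24 (SE 0.15, adjusted p = 0.491), and -0.04 without that array. Likewise Iso minus untreated in DKO was 0.20 (SE 0.15) with it and -0.0033 without it. Treated WT arrays were all above untreated WT arrays, by 0.07 on average, more than the spread within these groups, and treated WT arrays were all above treated DKO arrays. Of all genes, 15.6% and 17.6% separated in these comparisons, in either direction. Neither difference passed: Iso in WT was 0.07 (SE 0.15, adjusted p = 0.984, limma) and DKO minus WT with Iso -0.12 (SE 0.15, adjusted p = 0.939).

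Acta1 (Entrez gene 11459), at chr8:123891758-123894775, read 12.48, 12.42 and 12.28 on untreated WT arrays and 12.04, 12.21 and 11.91 with Iso. In DKO it read 12.48, 12.54 and 12.54 untreated and 12.24, 12.12 and 12.25 with Iso. The untreated genotypes met at 12.48. The group means ran from DKO untreated through WT untreated and DKO with Iso to WT with Iso. Each gap was larger than the larger SD of the groups on either side of it, the last one barely (0.1523 against 0.1517). The gap between the untreated groups, 0.1261, was smaller than the SD of the treated WT arrays (0.1517). All 6 treated arrays were below all 6 untreated arrays, a separation that 1.1% of the genes tested showed in either direction. The difference, Iso minus untreated, was -0.44, -0.21 and -0.38 for the WT animals and -0.24, -0.42 and -0.28 for the DKO animals, so the level was lower with Iso in 6 of 6 mice.

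The mean Iso difference of Acta1 was -0.34 in WT (SE 0.12, adjusted p = 0.599), -0.32 in DKO (SE 0.12, adjusted p = 0.180) and -0.33 over both genotypes (SE 0.08, 95% interval -0.51 to -0.15, adjusted p = 0.123), or 1.26-fold. In the comparison over both genotypes 0.124% of all genes passed and 0 of 9 members, with 2 members at an unadjusted p under 0.05 (14.4% of all genes). The Acta1 difference over both genotypes passed with array weights (adjusted p = 0.0345), where the count over all genes rose from 17 to 581. In the other 20 of 21 settings it did not pass. The interaction was 0.03 (SE 0.16, 95% interval -0.33 to 0.38). DKO minus WT was 0.14 over both treatments (SE 0.08, adjusted p = 0.624).

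**Figure D3:**
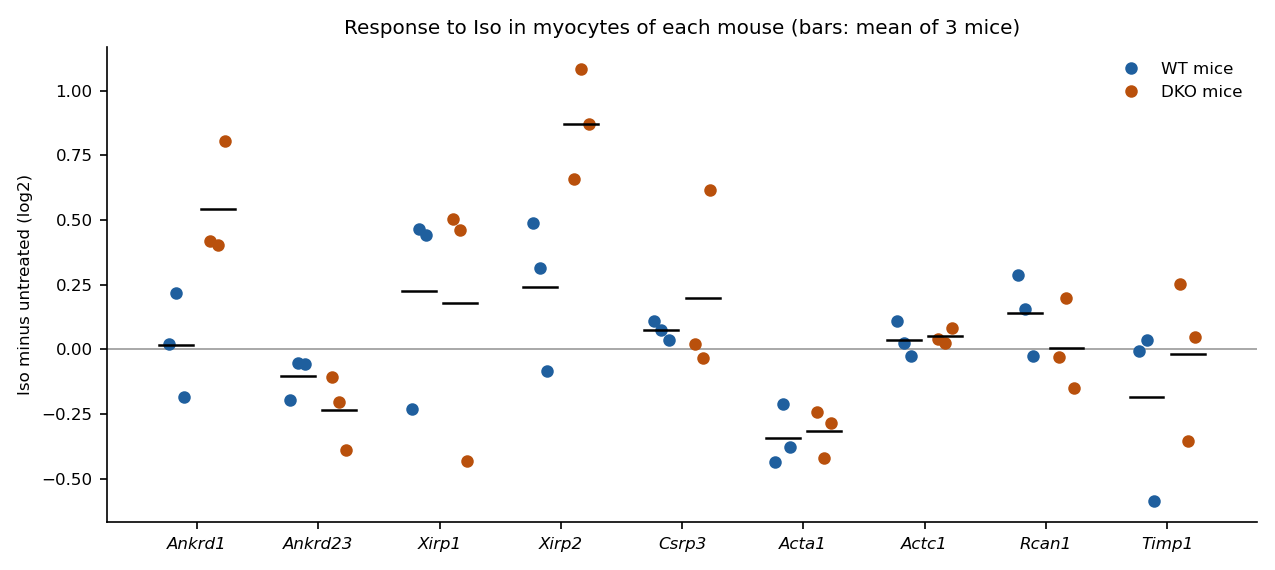
Difference in log2 signal, Iso minus untreated, of the 9 genes in each mouse (points; WT and DKO mice side by side), with 0 marked as no difference. Acta1 and Ankrd23 lie below 0 in all 6 mice, while Ankrd1, Xirp2 and Actc1 lie above 0 in all 3 DKO mice.

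Actc1 (Entrez gene 11464), at chr2:114047282-114052875, had the smallest range of the 9 genes, 0.195. Its 12 arrays lay between 13.38 and 13.58, near the highest value of an array, 13.83, and whether this probe set could read higher was not tested. No neighbouring group means differed beyond the spread within a group. The residual spread was smaller than that of all but 0.488% of the genes tested, and the Iso difference over both genotypes was 0.04 (SE 0.07) and the genotype difference -0.03 (SE 0.08). Neither passed. Both actin genes carry a CArG box in the windows above, and of the pair Acta1 read lower with Iso in every mouse.

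Rcan1 (Entrez gene 54720), at chr16:92391951-92466169, read 10.27, 10.59 and 10.58 in untreated WT and 10.75, 10.74 and 10.83 in untreated DKO arrays, which did not overlap. With Iso it read 10.56, 10.74 and 10.55 in WT and 10.72, 10.93 and 10.69 in DKO, which did. The DKO minus WT difference was 0.30 without Iso (SE 0.13, adjusted p = 0.334), 0.16 with Iso (SE 0.13) and 0.23 over both (SE 0.09, 95% interval 0.03 to 0.43, adjusted p = 0.406). None passed. The group means fell in the order DKO with Iso, DKO untreated, WT with Iso and WT untreated. The middle gap, 0.156, was larger than the SD of the groups on either side of it, but smaller than that of untreated WT (0.181). The gaps between treatments did not exceed the larger SD of their groups. Iso minus untreated was 0.14 (SE 0.13) in WT and 0.01 (SE 0.13) in DKO. One probe set covers the gene, so its starts, which give different isoforms, cannot be told apart.

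The groups of 3 arrays were also compared by whether their values overlapped. Without Iso, 6 of 9 members separated WT from DKO (Ankrd1, Ankrd23, Xirp2, Acta1, Rcan1 and Timp1), against 17% of all genes. Acta1 counts among them by a very small gap, as its highest WT and its lowest DKO array both read 12.48. With Iso 3 did (Xirp1, Csrp3 and Timp1), against 17.6%. In those comparisons 0.204% and 0.306% of all genes passed the adjusted threshold, and 0 of 9 members did, with 4 and 1 of them at an unadjusted p under 0.05 in limma (13.8% and 7.91% of all genes). Iso separated 2 of 9 members in WT (Csrp3 and Acta1, against 15.6%) and 4 in DKO (Ankrd1, Ankrd23, Xirp2 and Acta1, against 21.5%). Of the members 0 passed for Iso in WT (0.0218% of all genes did) and 0 in the interaction (0.0146%), with 1 each at an unadjusted p under 0.05 in limma (6.7% and 10.1%). Within mice, the treated array moved the same way from the untreated one in all 3 WT mice for 3 of 9 members (31.4% of all genes) and in all 3 DKO mice for 5 (38.2%). The comparisons share arrays: each Iso comparison uses untreated arrays that the genotype comparison without Iso uses as well, so they are not independent.

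**Figure D4:**
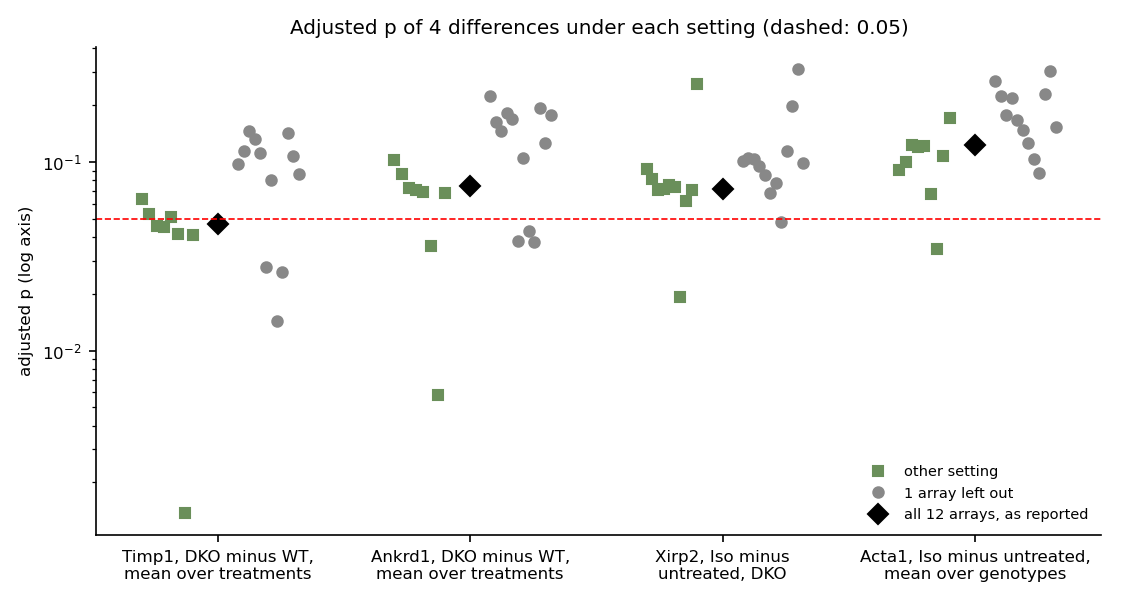
Benjamini-Hochberg adjusted p (log axis) of 4 results under each processing setting, with the threshold of 0.05 as a dashed line. The p for Timp1 (DKO versus WT over both treatments) lies between 0.00138 and 0.145 and lies above the line in 12 of 20 settings.

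The 9 genes did not share a direction. In the DKO minus WT difference over both treatments 3 of 9 lay above 0 and 6 below, with a median of -0.08, against -0.0026 over all genes; without Iso the median was -0.24, against -0.01. For Iso in DKO 6 lay above 0, with a median of 0.05, and in WT 6, with 0.04.

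For each member, the 3 named genes among those tested whose values followed it most closely over the 12 arrays were found. For Ankrd1 they were Nap1l1 (Pearson r 0.966; 0.933 over the 11 arrays without untreated DKO array 3), Serpinb6b and Abracl. For Xirp2 they were Prpf18 (0.971; 0.961), Ccdc181 and Dst, and for Acta1 Nudt6 (0.939; 0.935), Cdk5 and Crim1. For Rcan1 they were C2cd5 (0.913; 0.903), Iqgap1 and Hspb7, for Xirp1 Foxj2 (0.892; 0.892), Vstm2l and Ppif, and for Actc1 Tfrc (0.951; 0.886), Mtrex and Gdpd1. For Ankrd23 they were Gnb3 (0.921, and 0.893 without array 3), Pigq and Echdc3, with 1 unnamed gene ranked between Gnb3 and Pigq. For Timp1 they were Parp3 (0.904, and 0.901 without array 3), Ppbp and Cyp1a1, with 1 unnamed gene ranked above all of them. For Csrp3 they were Noct (0.977), Psmc2 (0.969) and Lrrc39 (0.969), and without array 3 the same correlations were 0.770, 0.876 and 0.536. All points share the 12 arrays, and these are descriptions picked from 13737 genes.

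The other genes of each pathway were read from lists, given by how many of those measured lay above 0 and how many passed. Titin and Z-disc stretch sensing had 28 tested genes. In the DKO minus WT difference over both treatments 7 were at an unadjusted p under 0.05 (limma), against 10.1% of all genes. In that comparison 13 were above 0 (median -0.006), and 1 passed, against 0.488% of all genes. It was Myot (myotilin, an actin cross-linker of the Z-disc), higher by 1.18 (SE 0.15, adjusted p = 0.00244). Myot was also higher in DKO in the comparison with Iso, by 1.36 (adjusted p = 0.0198). Its call over both treatments held in all 20 other settings, and the call with Iso was lost in 6 of 21, when any 1 of the 6 Iso-treated arrays was left out (adjusted p up to 0.129). In the Iso in DKO comparison 20 of the 28 were above 0, with a median of 0.16 against 0.0054 over all genes, and 0 passed, with 6 at an unadjusted p under 0.05 (limma), a mark that 18.4% of all genes reached. Without untreated DKO array 3 it was 3 of 28, against 15% of all genes.

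Of 21 tested load and hypertrophy markers, 9 were above 0 and 12 below in the DKO minus WT difference over both treatments (median -0.02). At an unadjusted p under 0.05 were 6 (limma), against 10.1% of all genes. In this list 2 passed, both lower, while 0.291% of all genes passed as lower. Nppa, the atrial natriuretic peptide, differed by -1.44 (SE 0.15, adjusted p = 0.000498), by -1.61 without Iso (adjusted p = 0.00733) and by -1.28 with Iso (adjusted p = 0.0262). Myh7, the slow myosin heavy chain, differed by -0.82 (SE 0.14, adjusted p = 0.0222), and its call was lost in 7 of 20 settings. Its signals were low, 3.8657 to 4.6035 on WT and 3.1514 to 3.5806 on DKO arrays. The DKO values lay near the array median that the filter used, and the lowest of them lay below it. Whether the Myh7 probe set follows the amount of RNA at such a level was not tested. The call for Nppa was lost in 3 of 21 settings without Iso (adjusted p up to 0.133), with only the 6 arrays compared and without untreated WT array 1 or 2. With Iso it was lost in 5 of 21, when any 1 Iso-treated array other than WT array 3 was left out (adjusted p up to 0.155). Nppa is also an atrial myocyte marker. The other 3 atrial markers tested, Sln, Myl7 and Myl4, differed over both treatments by -1.56, -0.84 and -0.07, and 0 of them passed or were at an unadjusted p under 0.05 (limma). Without Iso Myl4 read higher in DKO, by 0.42, which rests on untreated DKO array 3, the array that stood apart, at 5.98. Arrays 1 and 2 of that group read 5.19 and 5.22, within the untreated WT range of 4.71 to 5.29. With Iso Sln and Myl4 differed by -2.61 and -0.56, both at an unadjusted p under 0.05 (limma) and not passing. Summed with Nppa, the log2 signal of the list was 12.34 to 13.04 in WT and 10.94 to 11.45 in DKO arrays without Iso. With Iso all 3 WT arrays (11.74 to 12.54) were above all 3 DKO arrays. Nppa alone read 12.32 to 13.02 in WT and 10.84 to 11.39 in DKO arrays without Iso, so this sum mostly repeats Nppa. The mean log2 signal of the 5 atrial genes measured overlapped between the genotypes, at 5.66 to 6.81 in WT and 5.80 to 6.03 in DKO arrays without Iso, and at 5.67 to 7.52 and 5.59 to 5.79 with Iso. The part of atrial cells in the Nppa values was not tested. Of the 14 YAP-TEAD targets and factors tested, 8 were above 0 (median 0.02). At an unadjusted p under 0.05 were 2 (limma), and 1 passed. It was Thbs1, a thrombospondin, which differed by -0.88 (SE 0.16, adjusted p = 0.0281), a call lost in 8 of 20 settings.

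In the other 4 lists no gene passed in any comparison. Of the 15 calcineurin and NFAT genes, Calm2, a calmodulin gene, differed by 0.36 for Iso in DKO (adjusted p = 0.147) and Ppp3ca, the calcineurin catalytic subunit, by -0.53 without Iso (adjusted p = 0.251), or -0.33 without untreated DKO array 3. Of the 25 Xin partners at the intercalated disc, Ctnna3 (alpha-T-catenin) differed by 0.46 between genotypes over both treatments (adjusted p = 0.0978; 0.0453 without untreated DKO array 3) and Dsg2 (desmoglein) by 0.59 for Iso minus untreated over both genotypes (adjusted p = 0.126). Of the 19 actin and SRF-MRTF genes, Tmod1 (tropomodulin) differed by 0.58 for Iso in DKO (adjusted p = 0.0757) and Tpm4 (a tropomyosin) by -0.61 for Iso in WT (adjusted p = 0.530). Of the 10 tested TIMPs and matrix proteases, Adamts1 differed by 0.78 for Iso in DKO (adjusted p = 0.0913) and Mmp14 by -0.44 between genotypes without Iso (adjusted p = 0.176). In the DKO minus WT difference over both treatments these 4 lists had 8, 8, 8 and 4 genes above 0, of 15, 25, 19 and 10, with medians of 0.03, -0.03, -0.04 and -0.06. In each 0 passed, with 1, 4, 1 and 3 genes at an unadjusted p under 0.05 (limma), against 10.1% of all genes. For Iso in DKO 16 of the 25 Xin partners were above 0, with a median of 0.24, and 8 were at an unadjusted p under 0.05, against 18.4% of all genes. Without untreated DKO array 3, 18 of the 25 were above 0, with a median of 0.13, and 4 were at that mark, against 15% of all genes. The genotype difference over both treatments remains for 3 lists of cell type markers. In it 4 of 9 ventricular myocyte, 9 of 10 smooth muscle and pericyte and 1 of 6 mesothelial genes were above 0. Of these 0 passed, with 0, 0 and 2 at an unadjusted p under 0.05 (limma), against 10.1% of all genes.

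**Figure D5:**
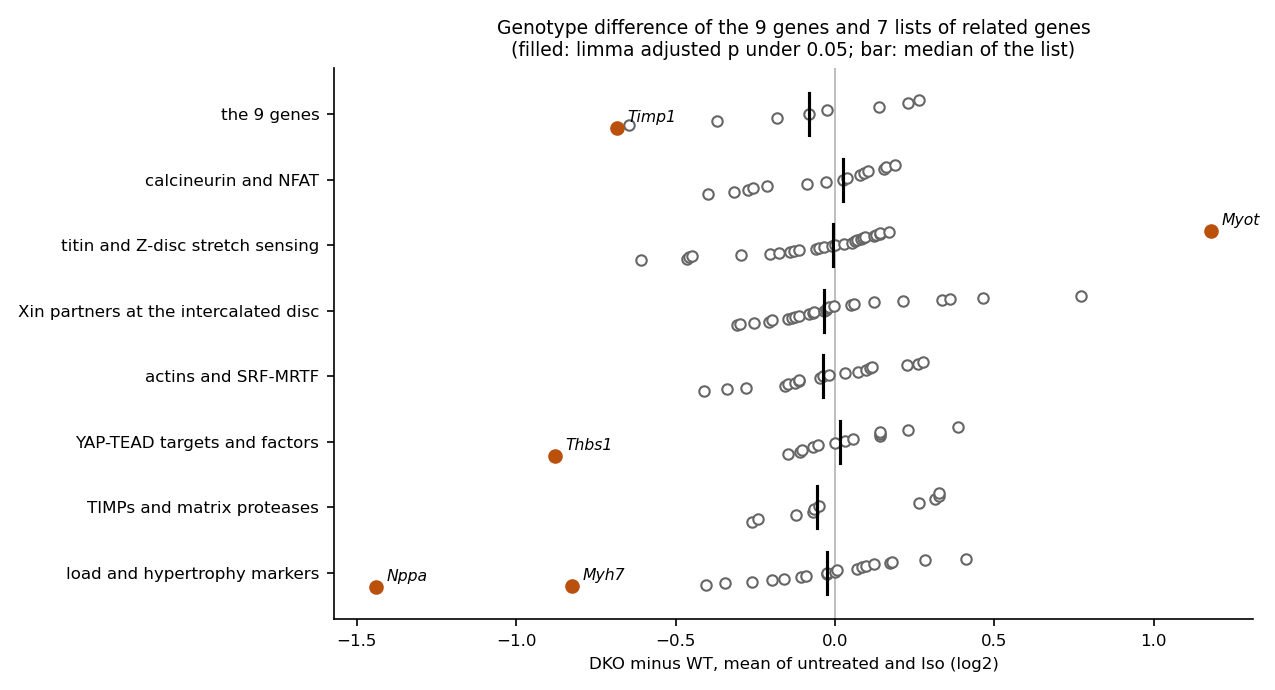
DKO minus WT log2 difference over both treatments for the 9 genes and the genes of 7 pathway lists, 1 point per gene. Filled points passed the adjusted threshold and bars are list medians; the filled points are Timp1, Myot, Thbs1, Nppa and Myh7.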

How the data were processed

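Messenger RNA of 12 myocyte samples was hybridised to Affymetrix arrays as biotinylated cRNA. RMA was the summary method the authors used, per the submitters' processing notes. The deposited values are log2 signals, already on closely matching distributions (2.25 to 13.8 on each array), and were used as they are. Untreated DKO array 1 differed slightly, with a lowest value of 2.251. Its Myl2 value, 13.5799, was also not among the levels that recur on the other arrays, such as 13.6016 and 13.666. The labels give no reason for this. Neither the array type nor its annotation build is known from the labels, and scanner files were not used here. The number of arrays, 3 per group, limits the precision.

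Of 25428 probe sets, 24704 genes had a symbol. Genes above their array's median on at least 3 of the 12 arrays were kept (13737) and 10967 dim genes left out. The 4 group means were fitted over all 12 arrays with limma 3.58.1 (R 4.3.3), with moderated variances (eBayes). The 7 comparisons were Iso minus untreated in WT, in DKO and on average, DKO minus WT without Iso, with Iso and on average, and the interaction (Iso effect in DKO minus that in WT). The average genotype comparison held the mouse as a random block (consensus correlation 0.0333). P-values were adjusted by Benjamini-Hochberg over all genes kept, and a gene passed under 0.05.

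The mouse numbers in the labels pair 1 untreated with 1 treated array. Paired arrays deviated from their group means with correlations of -0.0623 to 0.0566 for the WT animals and 0.00733 to 0.13 for the DKO animals, across genes, which are not independent replicates.

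All 9 genes were named whatever their result. Of each of 7 pathway lists, up to 4 members that passed were named, or the 2 with the smallest p where none did. Predicted genes and small RNA genes were not named. The genes, the lists and the 7 cell type marker lists were chosen with earlier results of these data known. The fit was tested on simulated data. Alternatives were other filters, scalings on top, variance moderation, array weights, the mouse as a block, only the arrays compared, and each array left out in turn.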

Additional observations from a re-analysis of the deposited data

How the results depend on the processing

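Of 1332 values of the 9 genes recomputed under other settings, 1272 kept their direction and side of the threshold, 12 lost and 15 gained a call, and 33 changed sign; 0 members passed for Iso in WT, for the interaction or for DKO versus WT with Iso in any setting. The count of members passing for DKO versus WT over both treatments, 1, was 0 with no filter, 0 with a filter at the 25th percentile, 0 with cyclic loess, 2 with trend and robust moderation and 3 with array weights (Ankrd1, Xirp1 and Timp1), and 0 to 2 with 1 array left out. For DKO versus WT without Iso it was 3 with array weights (the same 3 genes) and 0 to 2 with 1 array left out (Ankrd1 and Timp1 without untreated DKO array 2). For Iso in DKO it was 1 with array weights and 0 to 1 with 1 array left out (Xirp2), and for the mean Iso effect 2 with array weights (Xirp2 and Acta1). Array weights raised the count over all genes from 7 to 1109 for Iso in DKO, from 28 to 698 for DKO versus WT without Iso, from 17 to 581 for the mean Iso effect and from 67 to 446 for the mean DKO effect. With 1 array left out these 4 counts ran from 0 to 605, 7 to 180, 2 to 102 and 29 to 247, the first 2 highest without untreated DKO array 2 and the others without untreated DKO array 3. Over all settings the counts over all genes ran from 2 to 8 for Iso in WT, 2 to 51 for the interaction and 10 to 164 for DKO versus WT with Iso.

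The mouse as a replicate block changed no member's call: 0 members passed in each Iso comparison with a random or fixed block, and 1 for the mean DKO effect without it. Over all genes it moved the count for Iso in WT from 3 to 5 (random) and for the interaction from 2 to 5 (fixed).

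None of the values that changed sign had a call. With cyclic loess they were Rcan1 for Iso in DKO (-0.0144) and, in the interaction, Acta1 (-0.0028) and Actc1 (-0.0112). With array weights they were Timp1 for Iso in DKO (0.23) and for the mean Iso effect (0.0417), Actc1 without Iso (0.0045) and, in the interaction, Xirp1 (0.21), Csrp3 (-0.0401) and Actc1 (-0.0294). With 1 array left out, Ankrd1 for Iso in WT ran from -0.0924 to 0.19. For Iso in DKO, Csrp3 ran from -0.0033 to 0.31, Rcan1 from -0.0706 to 0.0534 and Timp1 from -0.21 to 0.16. In the interaction, Xirp1 ran from -0.19 to 0.21, Csrp3 from -0.0769 to 0.23, Acta1 from -0.0467 to 0.10, Actc1 from -0.0357 to 0.0476 and Timp1 from -0.0265 to 0.34. Actc1 ran from -0.0609 to 0.0162 between genotypes without Iso and from -0.0449 to 0.0137 with Iso. The cause was not tested. All intervals rest on 3 arrays per group.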
